A study of Mus musculus with 8 samples.

Results

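The genes described here encode enzymes and regulators that set the rate of glycolysis at its controlled steps: Gckr, Hk1, Hk2, Pfkl, Pfkfb1, Pfkfb2, Pfkfb3, Pklr and Pdk2. Each was read from probe sets of the mouse gene array to which the annotation gives exactly 1 symbol, and 8 of the 9 genes have such a probe set, 1 each. Pfkfb1 is not analysed here. All 8 passed the filter on dim probe sets and belong to the 13845 genes tested. Cultured primary hepatocytes of male C57Bl6J mice were exposed for 6 h to 1 of 4 treatments: 100 nM glucagon with 2 µM GW4064, 100 nM glucagon, 2 µM GW4064, or DMSO, the solvent control. Every group was kept in medium with 1 g/l glucose and 100 nM dexamethasone, a synthetic glucocorticoid. Both experiments ran all 4 treatments on 1 preparation of liver cells from 3 animals, mixed before plating. Every group thus has 2 arrays, 8 in all, and this number limits the precision of every value. No age of the animals was found in the labels, and cultured hepatocytes lack the other organs of the living animal.

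Glycolysis splits glucose to pyruvate, and in the liver its irreversible steps are switched against those of gluconeogenesis. Hexokinases phosphorylate glucose, and the glucokinase regulatory protein, encoded by Gckr, holds the liver's main glucose kinase in the nucleus. Phosphofructokinase 1, with Pfkl as its liver subunit, is driven by fructose 2,6-bisphosphate, which the bifunctional enzymes of the Pfkfb family make and break down. Liver pyruvate kinase, from Pklr, makes pyruvate, and Pdk2 phosphorylates and inhibits pyruvate dehydrogenase, the entry of pyruvate into the citric acid cycle. Glucagon, the fasting hormone, acts on the liver through cyclic AMP and protein kinase A, which within minutes changes the phosphorylation of the liver's bifunctional enzyme and of pyruvate kinase so that glycolysis slows. GW4064 is a synthetic agonist of the bile acid receptor FXR.

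The values are log2 signals as deposited. Array medians lay between 3.42 and 3.57, and the GW4064 array of experiment 2 stood somewhat apart: its correlations with the other arrays across genes were 0.975 to 0.985, against 0.976 to 0.997 among the other 7, and its 40th percentile was 3.27, against at most 3.17 on the others. The glucagon differences are also given without it. Of the hepatocyte markers 9 of 10 had a probe set, and all 9 lay above the 40th percentile of every array, with medians of 11.5 to 11.9. Pck1, which opens gluconeogenesis and is a well known glucagon target, differed by 5.15 between the 4 arrays with and the 4 without glucagon (SE 0.28, limma adjusted p = 0.000571). G6pc, which releases free glucose, differed by 4.08 (SE 0.15, limma adjusted p = 0.000131).

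**Figure D1:**
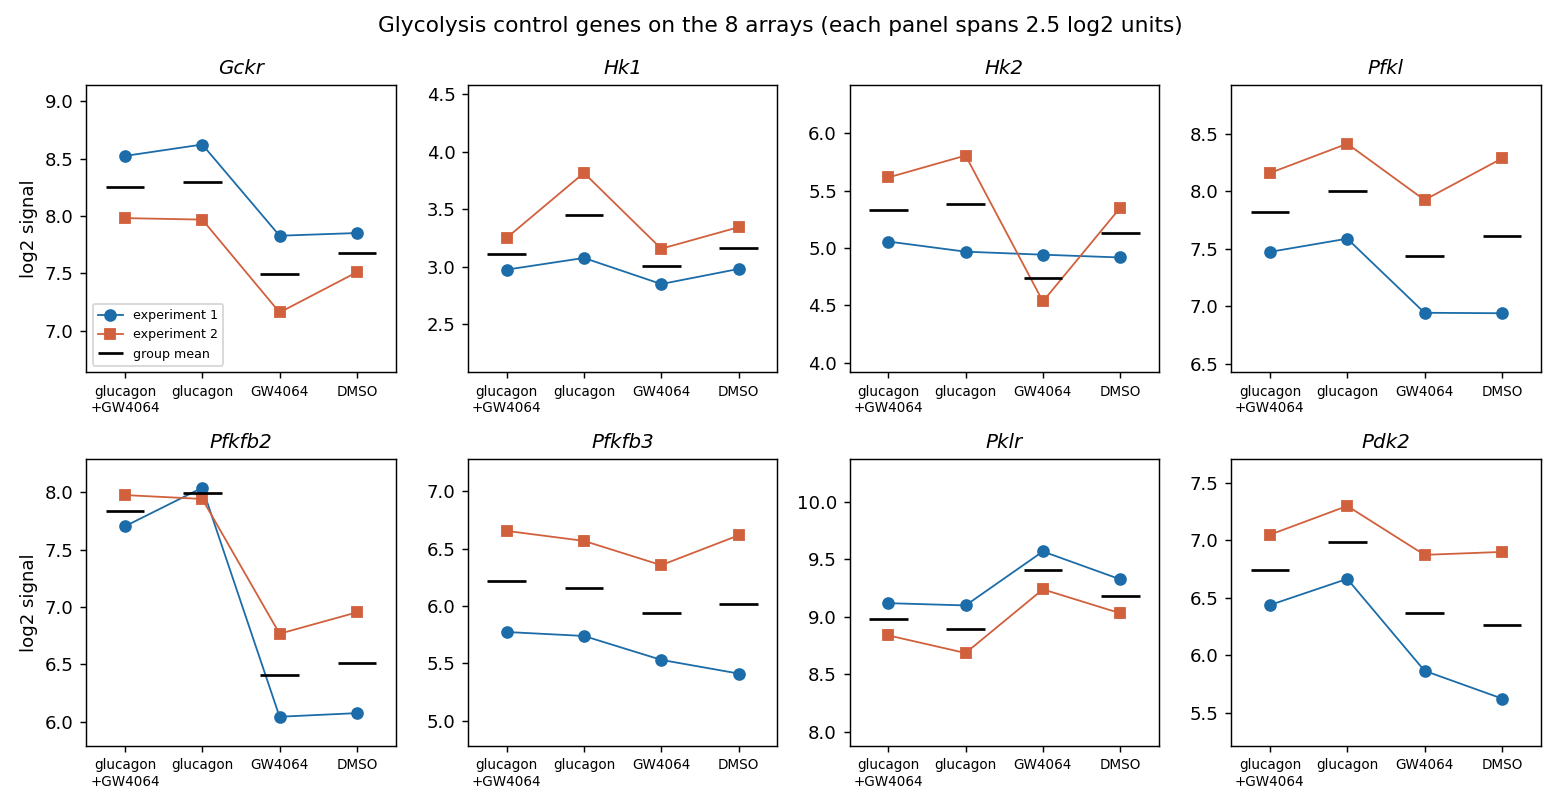
Log2 signal of the 8 measured control genes (vertical axis, 2.5 log2 units in every panel) on each array, by treatment (horizontal axis). Circles are experiment 1, squares experiment 2, thin lines join the arrays of 1 experiment, and black bars are the means of the 2 arrays of a group. The 4 Pfkfb2 values with glucagon lie between 7.70 and 8.04, above the 4 without it, and the experiments stand apart most for Pfkl, Pfkfb3 and Pdk2.

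The first comparison asked what glucagon did to these transcripts, averaged over the presence of GW4064 (4 arrays against 4). Pfkfb2 rose 2.74-fold, and it was the 1 of 8 genes past the test (limma adjusted p below 0.05), where 1.32% of all genes tested passed. Each experiment used 1 pool of cells for all its treatments. With the experiment as a block, which removes the difference between the cell pools, 3 of the 8 passed, against 5.76% of all genes: Pfkfb2 and Gckr rose (2.67% of all genes rose) and Pklr fell (3.08% fell). At an unadjusted p below 0.05 there were 3 of the 8 genes without the block, against 14.5% of all genes, and 5 with it, against 22.4%. The median difference of the 8 genes was 0.41 and that of all genes -0.00. In bulk RNA, a change in the number of cells of a type and a change in RNA per cell cannot be told apart.

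The difference held its sign in matched arrays for nearly all of these genes. For 6 of 8 genes (Gckr, Hk1, Hk2, Pfkl, Pfkfb2 and Pdk2) all 4 matched differences, in 2 experiments with and without GW4064, lay above 0, as they did for 15.4% of all genes. For 1 gene, Pklr, all 4 lay below 0, as for 16.7% of all genes. Pfkfb3 was positive in 3 of 4. Groups without any overlap between the 4 glucagon arrays and the 4 others were seen for 2 of the genes, Gckr and Pfkfb2, both higher with glucagon, against 6.07% of all genes. Among marker genes of other cell types, 4 of 5 cholangiocyte markers had a probe set. Their summed log2 signal was 15.2 to 15.7 on the arrays with glucagon and 15.9 to 18.0 on those without. Krt19 differed by -0.22, Epcam by -0.00 and Sox9 by -1.32, none of them past the test. The 9 hepatocyte markers summed to 103.9 to 105.5 with glucagon and 101.6 to 105.4 without it, and their median difference was 0.005. Of them 1 rose, Tat (0.83, limma adjusted p = 0.0465), and 2 with the block, Tat and Cps1 (0.46, blocked limma adjusted p = 0.024). The other markers tested passed in neither model, with Alb at -0.01 and Hnf4a at 0.20. The part of these lists in the differences above was not tested.

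**Figure D2:**
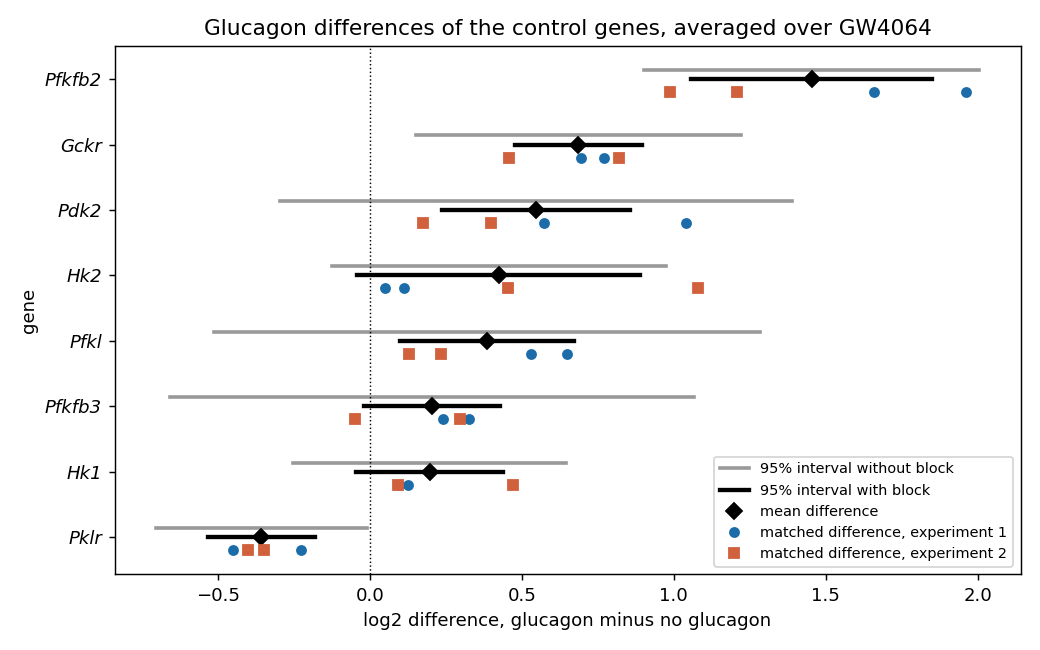
Log2 difference with glucagon minus without it (horizontal axis) for each control gene (vertical axis). Diamonds are means over the 4 matched differences, grey and black bars are 95% limma intervals without and with the experiment as a block, and circles and squares are the matched differences of experiments 1 and 2, each with and without GW4064. The matched differences of Pfkfb2 run from 0.99 to 1.96, and those of Pklr are all below 0.

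At the step of fructose 2,6-bisphosphate, Pfkfb2 (probe set 17226676) encodes a bifunctional enzyme known best from heart, where kinases including protein kinase A raise its kinase activity. Its log2 signal was 7.70 in experiment 1 and 7.98 in experiment 2 with glucagon and GW4064, and 8.04 and 7.94 with glucagon. It was 6.04 and 6.77 with GW4064 alone, and 6.08 and 6.95 with DMSO. All 4 glucagon arrays thus lay above all 4 others. Their spread was narrow: the mean was 7.91 ± 0.15 with glucagon and 6.46 ± 0.47 without it (SD, n = 4 arrays each). The difference averaged over GW4064 was 1.45 (SE 0.23, limma adjusted p = 0.0374; with the block SE 0.17 and adjusted p = 0.0072). It ranked 155 by p among the 13845 genes.

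The difference of Pfkfb2 was alike with and without the FXR agonist. It was 1.43 (SE 0.33) for glucagon with GW4064 against GW4064 and 1.48 (SE 0.33) for glucagon against DMSO, comparisons that share no array. Neither passed alone (limma adjusted p = 0.231 and 0.256; 0.053 and 0.0525 with the block). In the comparison with GW4064 present 0 of the 8 genes passed limma, against 0.166% of all genes (1.06% with the block), with 2 of 8 below an unadjusted p of 0.05 (10.5% of all genes) and 3 with the block (17.4%). Against DMSO 0 of 8 passed, against 0.116% (0.925% with the block), with 1 of 8 below an unadjusted p of 0.05 (6.7% of all genes) and 4 with the block (13.1%). With the block and without the GW4064 array of experiment 2, Gckr and Pfkfb2 passed against DMSO. That fit leaves 1 GW4064 array and calls more of all genes too, so these passes are no result about the genes themselves. The interaction for Pfkfb2 on the log2 scale was -0.04, with a 95% interval of -1.14 to 1.06. By experiment, the difference was 1.10 in experiment 2 and 1.81 in experiment 1, where the signal without glucagon was lower; that the experiments differ was not tested. The call without the block was lost without the filter on dim probe sets (adjusted p = 0.0506 over 22180 genes) and when any 1 of 5 arrays was left out: the DMSO array of experiment 1 (adjusted p = 0.113), the glucagon arrays of experiment 1 (0.174) and 2 (0.159), or the arrays with both agents of experiment 1 (0.162) and 2 (0.185). With the block it was lost without the array with both agents of experiment 1 (adjusted p = 0.0592). Without the GW4064 array of experiment 2 the averaged difference of Pfkfb2 was 1.63 without the block and 1.55 with it.

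The other bifunctional enzyme measured, Pfkfb3 (probe set 17381630), is an inducible form with a strong bias towards its kinase activity. Its signals were 5.77 and 6.65 with both agents, 5.74 and 6.57 with glucagon, 5.53 and 6.36 with GW4064, and 5.41 and 6.62 with DMSO, in experiments 1 and 2 in that order. The experiments stood apart and the treatments did not. The glucagon difference was 0.21 (SE 0.36, limma adjusted p = 0.843; 0.262 with the block), with a 95% interval of -0.66 to 1.07.

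The 250 bases before a transcript start of Pfkfb2, the gene with the largest glucagon difference of the 8, are shown here. RefSeq (GRCm38.p6) lists promoters for all 9 genes, 18 starts in all. They were searched on both strands for TGACG, the core of the cyclic AMP response element, for its full form TGACGTCA, which contains the core, and for the E-box CACGTG. The start of Pfkfb2 that held matches is at chr1:130715822-130716071 (minus strand, printed in the direction of transcription), with TGACG and CACGTG in capitals:
Pfkfb2: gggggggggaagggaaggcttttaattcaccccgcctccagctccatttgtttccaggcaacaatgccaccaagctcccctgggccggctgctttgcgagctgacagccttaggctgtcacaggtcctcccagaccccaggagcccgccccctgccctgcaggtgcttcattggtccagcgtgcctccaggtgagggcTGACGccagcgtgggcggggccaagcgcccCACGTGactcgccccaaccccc
TGACG begins 52 bases and CACGTG 22 bases before the start. The other listed starts of Pfkfb2 held no match. TGACG was in 4 of the 18 windows, of Hk2, Pfkfb2 and Pfkfb3, and in 17.8% of all promoters of this length. By gene that is 3 of 9, against 19.8% of all genes. CACGTG was in 3 of the 18 windows, of Pdk2, Pfkfb2 and Pfkfb3, and in 6.02% of all promoters, or 3 of 9 genes against 6.86% of all genes. TGACGTCA was in 0 of the 18 windows and in 1.55% of all promoters. The shares by gene are not matched for windows per gene: the 9 genes have 18 windows, and all 27025 genes have 32851. The motifs were chosen with the results known, and a match describes the letters only.

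At the last step of glycolysis, Pklr (probe set 17399266) encodes the pyruvate kinase of liver and red cells. Its signals were 9.12 and 8.84 with both agents and 9.10 and 8.68 with glucagon, in experiments 1 and 2 in that order. They were 9.57 and 9.24 with GW4064 and 9.33 and 9.03 with DMSO. The lowest value without glucagon, from experiment 2, was below the values with glucagon of experiment 1, so the groups overlap. Within each experiment every glucagon array was below both others. The difference averaged over GW4064 was -0.36 (0.781-fold, SE 0.15, limma adjusted p = 0.332), and it passed with the block (SE 0.07, adjusted p = 0.0439). By experiment it was -0.37 in experiment 2 and -0.34 in experiment 1. The blocked call was lost without any 1 of the DMSO, glucagon or both-agent arrays, with differences of -0.38 to -0.33. It stood without either GW4064 array, with a difference of -0.36 each time. Calls among all genes were fewer than with all arrays in the former fits and more in the latter.

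The promoter of the liver form of Pklr is where the carbohydrate response element was described in the rat, the site through which glucose and the factor ChREBP raise the gene. RefSeq lists 2 starts for the mouse gene, and the 250 bases before the second (chr3:89136373-89136622, plus strand, GRCm38.p6) contain that element, CACGGG and CCCGTG set 5 bases apart, in capitals:
Pklr: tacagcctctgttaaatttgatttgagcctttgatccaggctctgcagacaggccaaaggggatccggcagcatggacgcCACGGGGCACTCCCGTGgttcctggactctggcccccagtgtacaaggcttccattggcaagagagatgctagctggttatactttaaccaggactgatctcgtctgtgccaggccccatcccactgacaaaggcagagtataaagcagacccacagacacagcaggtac
It spans 170 to 154 bases before the start. The spelling searched was that of the Pklr element itself, so the match is no result of these data. In this exact spelling it occurs in 1 of 32851 promoter windows, this one. Other spellings of the element were not searched. Mlxipl, which encodes ChREBP, differed by 0.13 with glucagon (SE 0.12, limma adjusted p = 0.664). Txnip, a regulator of glucose uptake and a well known ChREBP target, had signals of 5.60 to 6.14 with glucagon and 6.33 to 6.88 without it. Its difference was -0.80 (SE 0.18, limma adjusted p = 0.107), and it fell with the block (adjusted p = 0.00609). The part of ChREBP in the differences of Pklr and Txnip was not tested.

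At the entry of glucose, Gckr (probe set 17436107) had signals of 8.52 and 7.98 with both agents and 8.62 and 7.97 with glucagon, in experiments 1 and 2 in that order. They were 7.83 and 7.16 with GW4064 and 7.85 and 7.51 with DMSO. All 4 glucagon arrays lay above all 4 others, with means of 8.27 ± 0.35 against 7.59 ± 0.32 (SD, n = 4 arrays each). The difference was 0.69 (1.61-fold, SE 0.23, limma adjusted p = 0.223), and with the block it passed (SE 0.09, adjusted p = 0.0104). The 4 matched differences were 0.69, 0.77, 0.82 and 0.46. The lowest of these is glucagon against DMSO in experiment 2. The blocked call was lost without the DMSO array of experiment 1 (adjusted p = 0.0665), the glucagon array of experiment 1 (0.0688) or either array with both agents (0.0804 and 0.0635). Without the GW4064 array of experiment 2, the lowest Gckr signal, the blocked difference was 0.65 (adjusted p = 0.0119).

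The hexokinases are known from other tissues more than from hepatocytes. Hk1 (probe set 17241318), the form of brain and red cells, was dim: it exceeded the 40th percentile on 3 of 8 arrays, and those were of experiment 2. Its signals were 2.97 and 3.25 with both agents, 3.08 and 3.82 with glucagon, 2.85 and 3.16 with GW4064, and 2.98 and 3.34 with DMSO. The glucagon difference of 0.20 (SE 0.19, limma adjusted p = 0.689; 0.315 with the block) says little at such signals.

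Hk2 (probe set 17468018), the insulin-responsive form of muscle, had signals of 5.06 and 5.61 with both agents, 4.97 and 5.81 with glucagon, 4.94 and 4.54 with GW4064, and 4.92 and 5.35 with DMSO. In experiment 1 the 4 values lay within 4.92 to 5.06, and in experiment 2 they ran from 4.54 to 5.81. The glucagon difference was 0.42 (SE 0.23, limma adjusted p = 0.466; 0.262 with the block). It was 0.77 in experiment 2 and 0.08 in experiment 1. With the block it was 0.17 without the GW4064 array of experiment 2, more than 1.5 times smaller, and 0.68 without that of experiment 1. In the latter fit the GW4064 group is only the array of experiment 2, the lowest Hk2 signal (4.54).

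Pfkl and Pdk2 had positive differences that did not pass. Pfkl (probe set 17242376) had signals of 7.47 and 8.16 with both agents, 7.59 and 8.41 with glucagon, 6.94 and 7.92 with GW4064, and 6.94 and 8.29 with DMSO. Within each experiment the glucagon arrays were above their matched arrays, by 0.53 and 0.65 in experiment 1 and by 0.24 and 0.13 in experiment 2. The averaged difference was 0.39 (SE 0.38, limma adjusted p = 0.695; SE 0.12 and adjusted p = 0.119 with the block). Pdk2 (probe set 17268120) had signals of 6.44 and 7.05 with both agents, 6.66 and 7.30 with glucagon, 5.86 and 6.87 with GW4064, and 5.62 and 6.90 with DMSO. It showed the same order within each experiment. Its averaged difference was 0.55 (SE 0.36, limma adjusted p = 0.54), and 0.0616 with the block was just outside the threshold. It was 0.29 in experiment 2 and 0.81 in experiment 1. With the block and without the GW4064 array of experiment 2 the difference was 0.39 for Pfkl, 0.59 for Pdk2 (limma adjusted p = 0.0522), 0.17 for Pfkfb3 and 0.16 for Hk1, none past the test.

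The second comparison asked what the FXR agonist did. For GW4064 averaged over glucagon, 0 of the 8 genes passed and 0 of all 13845 (0%), by limma without or with the block. At an unadjusted p below 0.05 there were 0 of the 8 genes without and 1 with the block, Hk1, against 216 and 447 of all genes. The largest differences were -0.25 for Hk1 (SE 0.19, 95% interval -0.69 to 0.20), -0.22 for Hk2 (SE 0.23, -0.77 to 0.33) and -0.18 for Pfkl (SE 0.38, -1.08 to 0.72). Pklr was the 1 gene of 8 with a positive value, 0.16 (SE 0.15, -0.19 to 0.50). Its 4 matched differences were all above 0 (0.02 to 0.24), as for 5.66% of all genes. Those of Hk1 were all below 0 (-0.57 to -0.10), as for 8.05%. Hk1 was dim: it exceeded the level of the filter on dim probe sets on 3 of 8 arrays, all of experiment 2. Both of its signals with GW4064 alone (2.85 and 3.16) lay below that level, so its GW4064 values say little.

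The separate GW4064 comparisons gave the same count of 0. Against DMSO the 8 values ran from -0.40 for Hk2 to 0.23 for Pklr. With glucagon and GW4064 against glucagon they ran from -0.33 for Hk1, which was dim, to 0.09 for Pklr. In each, 0 of the 8 genes were below an unadjusted p of 0.05, with or without the block, and 0% of all genes passed limma (373 and 90 genes below an unadjusted p of 0.05; 720 and 194 with the block). The count of all genes against DMSO was 406 without the GW4064 array of experiment 1. GW4064 is then the array that stood apart alone, and its spread is taken from the other groups. The interaction of the agents also had 0 calls among the 8 genes and 0% among all (149 genes below an unadjusted p of 0.05 by limma, 332 with the block). Its values ran from -0.35 for Pdk2 to 0.34 for Hk2. Without the GW4064 array of experiment 2, the blocked difference of Hk2 averaged over glucagon was 0.03.

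The 2 experiments differed more than the treatments for several of these genes. Each experiment is 1 pool of cells, so no test is possible and values are a description. Averaged over the 4 treatments, Pfkl was higher by 0.96 in experiment 2 than in experiment 1, Pfkfb3 by 0.93 and Pdk2 by 0.88. Differences larger in size were found for 0.881%, 0.997% and 1.2% of all genes. All 4 arrays of experiment 2 lay above all 4 of experiment 1 for these genes and for Hk1, 4 of 8, against 6.12% of all genes. Hk1 entered the test only through its experiment 2 arrays, so its part in that count says nothing.

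Gckr and Pklr went the other way and were lower in experiment 2, by -0.55 and -0.33, with overlapping arrays. Pfkfb2 was higher by 0.88 with DMSO and 0.72 with GW4064 in experiment 2, but differed by -0.10 with glucagon and 0.27 with both agents. With glucagon the experiments were thus close, and without it they were not. Marker genes moved with the experiment too: the summed log2 signal of the 8 sinusoidal endothelial markers was 35.0 to 35.5 in experiment 2 and 37.6 to 38.2 in experiment 1. That of the 7 stellate cell and fibroblast markers was 26.1 to 26.4 and 24.6 to 25.3, that of the 8 Kupffer cell and macrophage markers 28.4 to 29.3 and 27.6 to 28.2, and that of the 9 hepatocyte markers 104.5 to 105.5 and 101.6 to 104.3, experiment 2 first in each. Of the same markers, 6 endothelial, 2 to 3 stellate and 3 to 7 macrophage genes exceeded the 40th percentile of an array. Their part in the differences between experiments was not tested.

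**Figure D3:**
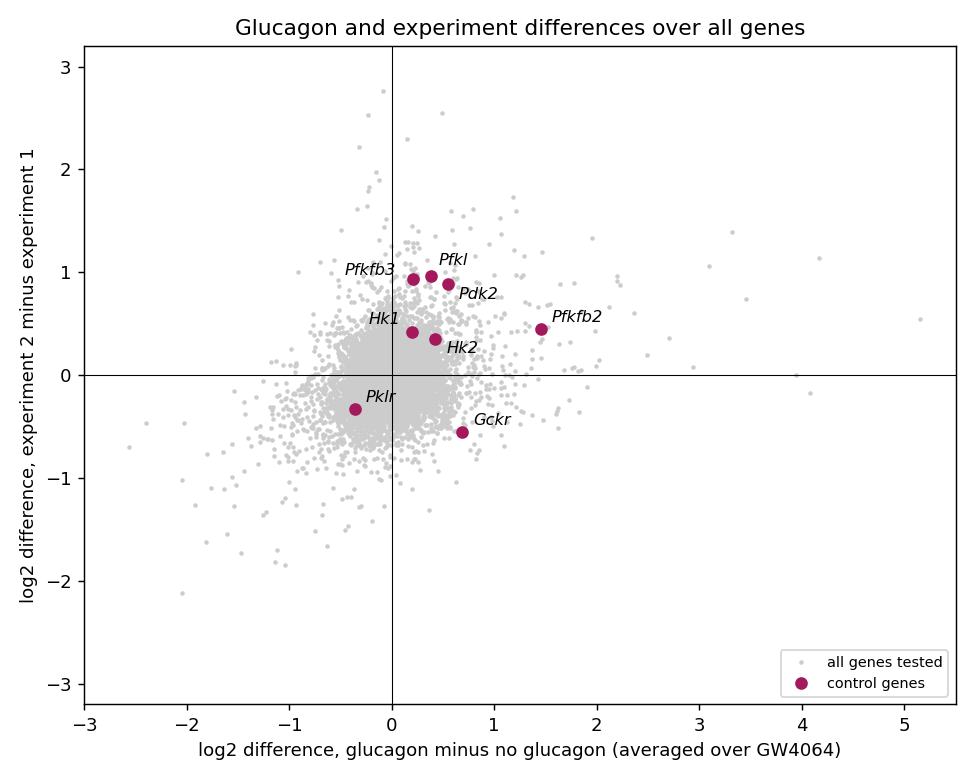
Each gene's log2 difference with glucagon minus without it (horizontal axis) against its difference of experiment 2 minus experiment 1 (vertical axis). Grey points are the 13845 genes tested and magenta points the 8 control genes. Pfkfb2 lies far to the right (1.45), Pfkl, Pfkfb3 and Pdk2 lie highest among the 8 (0.88 to 0.96), and Gckr is to the right and below 0.

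The glycolytic genes around these controls were taken from lists chosen with earlier results of these data known, and the values below are glucagon differences averaged over GW4064. Of all 13845 genes, 6794 were positive in this comparison. Without the block 0.816% rose and 0.506% fell, and with it 2.67% rose and 3.08% fell. Of the other isoforms of the control enzymes, 8 of 10 were measured: 0 passed, 1 rose with the block, 7 of 8 were positive and the median was 0.28. The 1 was Tigar, a fructose 2,6-bisphosphatase (0.45, SE 0.10, limma adjusted p = 0.103; 0.0402 with the block). Pkm, the pyruvate kinase of most other tissues, differed by 0.56 (0.51; 0.0598 with the block) and Pfkp, a phosphofructokinase 1 subunit of platelets, by 0.57 (0.611; 0.101). Hkdc1, a hexokinase of low activity, differed by 0.32 (0.134; 0.0567) at group means of 3.52 and 3.21, close to the filter level.

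The enzymes of the shared steps differed less. Of 14 other glycolytic enzymes 9 were measured, 0 passed without or with the block (0 and 1 at an unadjusted p below 0.05), and the median was 0.08. The extremes were Pgam1, a phosphoglycerate mutase (0.29, limma adjusted p = 0.375), and Adpgk, the ADP-dependent glucose kinase (-0.18, limma adjusted p = 0.656). Of the pyruvate dehydrogenase complex and its phosphatases 8 of 8 were measured, 0 passed in either model (0 and 2 at an unadjusted p below 0.05), and the median was 0.14. Of all genes, 14.5% without and 22.4% with the block were below that p. Pdp2, a phosphatase that opposes the Pdk kinases, differed by 0.42 and Pdpr by 0.25.

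Among carriers of sugars, lactate and pyruvate, 5 of 6 were measured and all 5 were positive (6794 of all 13845 genes were), with a median of 0.20. With the block 1 rose, Slc16a7, a carrier of lactate and pyruvate with high affinity (0.85, 1.80-fold, SE 0.28, limma adjusted p = 0.225; 0.00691 with the block). Its signals were 7.38, 7.96, 7.53 and 8.20 with glucagon and 6.69, 7.28, 6.38 and 7.35 without it, and every glucagon array exceeded its matched array. Slc16a1, a further lactate carrier, differed by 0.35 (0.134; 0.0621). Of the regulators of glycolytic genes 10 of 10 were measured, 0 rose and 1 fell with the block, Txnip, and the median was 0.08. Of 5 opposing gluconeogenic genes 2 rose, Pck1 and G6pc, and the median was 0.40; Fbp1, which reverses the phosphofructokinase step, differed by 0.40 (limma adjusted p = 0.501; 0.0719 with the block).

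**Figure D4:**
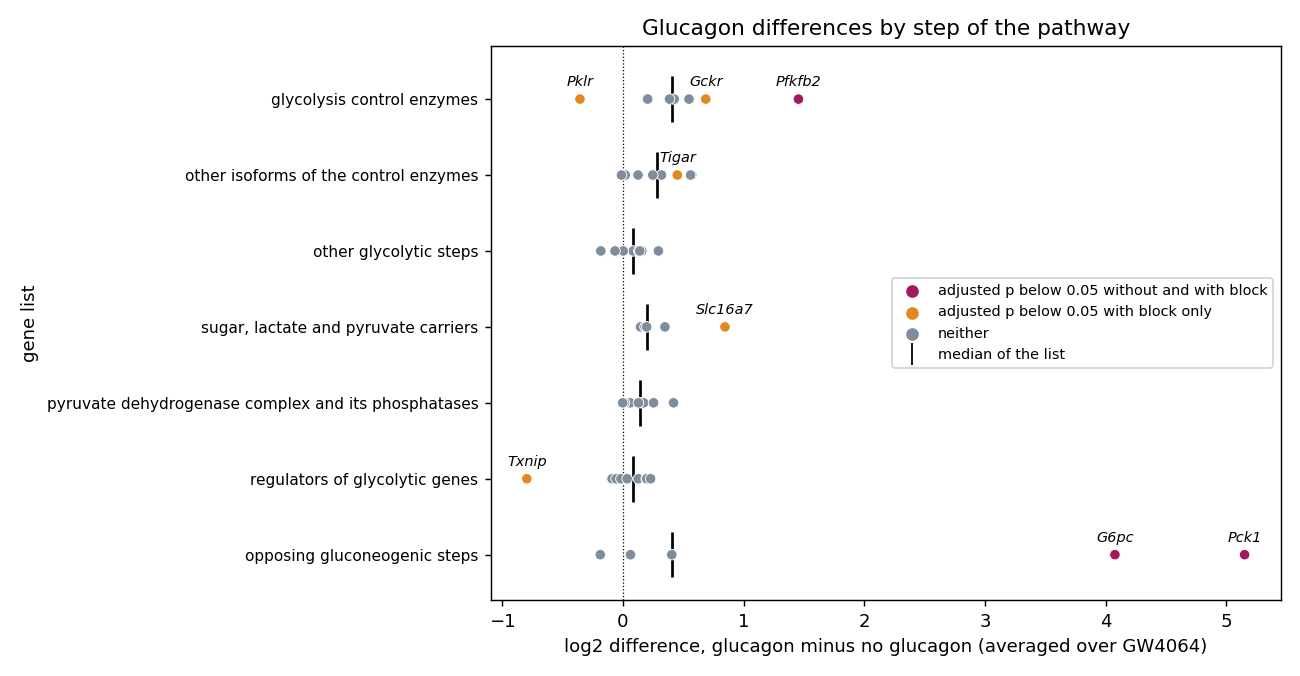
Log2 difference with glucagon minus without it (horizontal axis) of each measured gene, by gene list (vertical axis). Dark magenta points passed the test without and with the experiment as a block, orange points with it only, grey points in neither, and black ticks are list medians, 0.41 for the control enzymes and 0.08 for the other glycolytic steps. Named genes passed in at least 1 of the models.

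The gene most alike to Pfkfb2 over the 8 arrays was Hacl1, a lyase of peroxisomal fatty acid alpha-oxidation (Pearson r = 0.996), then AA986860 (0.994) and Mob3b (0.993). The 8 points share 4 treatments and 2 cell pools. The glucagon differences of these genes were 0.77 for Hacl1, 2.12 for AA986860 and 1.45 for Mob3b. Among the control genes, on values centred within each experiment, Gckr and Pfkfb2 had the highest correlation (r = 0.967 over 8 arrays), and Gckr and Pklr the most negative one (r = -0.929). On the values as deposited, the scale used for Hacl1, the same pairs had r = 0.561 and -0.175. There Pfkl and Pdk2 had the highest correlation (r = 0.966) and Pfkl and Pklr the most negative one (r = -0.859).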

How the data were processed

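RNA of mouse primary hepatocytes was measured on 8 Affymetrix MoGene 2.0 ST arrays, 300 ng per labelling, with 2 technical replicates pooled per sample, per the labels. The log2 signals were deposited by the authors after GeneSpring processing, per the labels; background correction, summarisation, normalization and version are not stated there, and the log2 scale was read from the values.

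The table has 41345 probe sets, of which the platform annotation names 23521 with 1 symbol, 1814 with several and 16010 with none. Probe sets above the 40th percentile of their array on at least 2 arrays were kept, and per gene the one with the highest mean, which left 13845 genes. limma 3.58.1 (R 4.3.3) was fitted to all 8 arrays with a mean for each group, leaving 4 residual degrees of freedom (3 with the block). It gave 7 contrasts with two-sided p-values, adjusted in each contrast across the 13845 genes (Benjamini-Hochberg, threshold 0.05). Intervals are 95% intervals of a single gene. The fit was first run on simulated data.

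Same-numbered arrays are paired, since the labels give each experiment 1 pool of cells for all treatments. Between groups, their deviations from group means correlated at 0.350 to 0.620. The model without the block is the main one, and blocked values stand beside it where they change a call. Without the block the p-values measure the spread between arrays of a group, which includes the difference between these 2 pools. With the block they measure the spread left after that difference is removed. Neither covers pools beyond these 2.

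The members and lists were chosen with earlier results of these data known. Named were all members, from each list the genes past the test in any contrast and model and among the 4 with the smallest p for glucagon, Pck1, G6pc, and the 3 genes most correlated with the member of smallest p. Marker genes were named after their values were seen. Promoters are from RefSeq, GRCm38.p6, matched by symbol for 9 of 9 genes. Alternatives were no filter, quantile normalization, only the groups compared, the mean over probe sets, each array left out, and the block.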

Additional observations from a re-analysis of the deposited data

Results flagged for a closer look

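Hk2 differed with GW4064 in opposite directions in the experiments: in experiment 2 its matched differences were -0.82 without and -0.19 with glucagon, and in experiment 1 they were 0.02 and 0.09. The mean difference of experiment 2 minus that of experiment 1 was -0.56. This difference was not tested. The value of -0.82 uses the GW4064 array of experiment 2, which stood apart from the other arrays.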

How the results depend on the processing

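With the replicate block (the experiment), genes called were 128 for glucagon against DMSO (16 without it), 147 for glucagon with GW4064 against GW4064 (23) and 797 for glucagon averaged over GW4064 (183), and members called in the last were 3 in place of 1. The paired model changed no other member's call. When the GW4064 array of experiment 2 was left out as well, the counts were 438, 190 and 1454 genes, with 2 members called against DMSO and 3 for the average, and 3 genes were called for GW4064 averaged over glucagon. With only the groups compared, 9 and 3 genes were called in the first 2 comparisons. Without the filter 0 members were called (Pfkfb2, adjusted p = 0.0506).

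Leaving out each array in turn, without the block, gave 2 to 27 genes for glucagon against DMSO, 2 to 759 for glucagon with GW4064 against GW4064, 25 to 702 for the average with 0 to 1 members, and 0 to 406 for GW4064 against DMSO. A group then has 1 array, assumed to vary like the other groups. The 406 rest on the GW4064 array of experiment 2 alone, which stood apart. The following were chosen after seeing the data, for the average with the block. Leaving out the GW4064 array of experiment 1 gave 2379 genes and 4 members, the array with both agents of experiment 1 gave 113 and 0, the DMSO array of experiment 2 gave 311 and 2, the glucagon array of experiment 2 gave 284 and 2, and the other 3 arrays gave 136 to 199 genes and 1 member. Quantile normalization gave 914 genes and 3 members. The causes were not tested. Of the 21 alternatives to the average, 18 can move a member's difference. Under these, 7 of 8 members kept its sign, and Pfkfb3 turned under 4. Hk1, near the background, and 2 arrays a group limit what could be called.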
